A study of Mus musculus with 9 samples.

Results

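The genes described here are 32 antiviral effectors and nucleic acid sensors of the type I interferon response, chosen by symbol from a list of named members and found once each among the 26146 genes of the expression table. They comprise interferon beta itself (Ifnb1) and genes known to be induced by type I interferon in vertebrate cells. They were measured in RAW264.7 cells, a mouse macrophage-like line, by sequencing poly(A) RNA in 9 libraries, 3 in each of 3 groups. M and ET are named after their table columns: the M libraries are titled as LPS with an extract and the ET libraries as LPS. Normal is named after its title, which gives no LPS and no extract. LPS is a bacterial cell wall lipid, and the extract is called in the series title an active extract of traditional Chinese medicine. The label of each M and ET library contradicts itself: the library titled LPS with extract names an M column and an ET library, and the library titled LPS names an ET column and an M library. Read by title and column name, M received the extract and ET did not, and read by title and library name it was the reverse. Expression was not used to choose between them, so every direction between M and ET is given for the column names only. Plant, dose, solvent and time of treatment are not stated in the labels used here, and a group with the extract alone was not analysed here.

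When LPS engages TLR4 on a macrophage, one signalling branch activates TBK1 and the transcription factor IRF3, which turns on Ifnb1. Secreted interferon then binds the receptor IFNAR1/IFNAR2, and a complex that contains STAT2 and IRF9 binds interferon-stimulated response elements in front of effector genes. Their products trap or degrade viral RNA, block translation, hold back budding virus and raise the level of the sensors that detect foreign RNA and DNA.

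Letters of the response element were present near the start of many members. Promoter windows of 300 bases, 250 before and 50 after an annotated start, were taken from RefSeq (GRCm38.p6) and matched 24 of the 32 members by symbol, with 27 windows in all since a gene can have several annotated starts; Dhx58, Ifi204, Mx1, Mx2, Oas2, Rtp4, Usp18 and Zbp1 are named only. The response element was searched as GAAANNGAAA on both strands, so that overlapping repeats count as separate matches. It was present in 14 of the 24 members (58.3%), against 3.99% of all 27025 genes with a window. A kappaB-type sequence, GGGANNTTCC on both strands, was present in Ifnb1, Ifit2 and Isg20 (3 of 24, 12.5%), against 1.63% of genes. A gamma-activated sequence, TTCNNNGAA, which reads the same on both strands, was present in 5 of 24 members (20.8%), against 9.55% of genes. The stretches below show the matches of the members with the largest M over ET differences (Rsad2, Ddx60, Ifit1, and the near-identical pair Ifit3 and Ifit3b), of Isg15, of the pair with the smallest differences (Oas1a and Oas1g), and the kappaB-type match of Ifnb1. Each has 60 bases in the direction of the gene's transcription with matches in capitals, and the 10-base match nearest to the start of the gene has 25 bases on either side.
Rsad2 (chr12:26456538-26456597, minus strand): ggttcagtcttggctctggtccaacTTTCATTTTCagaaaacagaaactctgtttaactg
Ddx60 (chr8:61928043-61928102, plus strand): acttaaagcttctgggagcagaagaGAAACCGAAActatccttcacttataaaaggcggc
Ifit1 (chr19:34640779-34640838, plus strand): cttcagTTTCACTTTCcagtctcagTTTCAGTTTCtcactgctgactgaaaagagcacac
Ifit3 (chr19:34583382-34583441, plus strand): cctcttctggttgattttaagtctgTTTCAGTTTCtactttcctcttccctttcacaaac
Ifit3b (chr19:34607778-34607837, plus strand): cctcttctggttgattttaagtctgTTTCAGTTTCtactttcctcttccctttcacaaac
Isg15 (chr4:156200850-156200909, minus strand): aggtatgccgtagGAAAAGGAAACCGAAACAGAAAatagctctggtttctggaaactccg
Oas1a (chr5:120907505-120907564, minus strand): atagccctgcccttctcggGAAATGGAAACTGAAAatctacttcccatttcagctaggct
Oas1g (chr5:120887591-120887650, minus strand): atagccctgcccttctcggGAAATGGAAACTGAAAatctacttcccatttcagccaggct
Ifnb1 (chr4:88522876-88522935, minus strand): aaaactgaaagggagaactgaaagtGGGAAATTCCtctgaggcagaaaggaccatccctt
Isg15 had 3 overlapping matches, beginning at positions -78, -72 and -66 from its start, where -1 is the base before the start. Ifit1 had matches at -104 and -85, Rsad2 had a match at -120, and Ddx60 had matches at -53 and -19. The stretches of Ifit3 and Ifit3b were the same in every base. A match is a description of the letters and not a shown binding site.

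The libraries held 55039858 to 76242718 counts in all, of which 57796361 to 60881764 were in M, 55039858 to 62962615 in ET and 56921531 to 76242718 in Normal libraries. A count of 3 was taken as the floor for a gene at 0, and floors and intervals cover counting error only. Macrophage markers were present as labelled: 9 of 10 had an FPKM (fragments per kilobase of transcript, scaled to the depth of the library) of at least 1 in all libraries, and Mertk did not exceed 0.0297. In a principal component analysis of all tested genes, the first component (90.5% of the variance) separated M and ET from Normal and the second (2.28%) M from ET. ET replicate 3 lay nearer to the M libraries on the second component, at -7.22, than ET replicates 1 and 2 at -14.7 and -17.1, with M libraries at 11.5 to 13.7. The labels do not say that replicates were separate cultures, so p-values measure the spread between these libraries, which may be technical.

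The summed level of the members was higher in both treated groups than in Normal and higher in M than in ET. They took 0.321%, 0.335% and 0.333% of all counts in M libraries, 0.252%, 0.263% and 0.263% in ET libraries, and 0.0467%, 0.048% and 0.0463% in Normal libraries. Their summed level was 1017 ± 19.4 FPKM in M, 813.3 ± 11.5 FPKM in ET and 125.8 ± 0.666 FPKM in Normal (SD, n = 3 each). The groups did not overlap. Bst2, which encodes the virus-tethering membrane protein tetherin, alone made up 29.5% of the summed FPKM in M, 31.2% in ET and 53.9% in Normal. The next levels were those of Isg15, Oas1a and Oasl1 in M and of Oas1a, Isg15 and Oasl1 in ET, whereas Rnf213, Oas1a and Eif2ak2 followed Bst2 in Normal. In RNA from whole cultures, a change in the number of responding cells and a change in RNA per cell cannot be told apart.

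**Figure D1:**
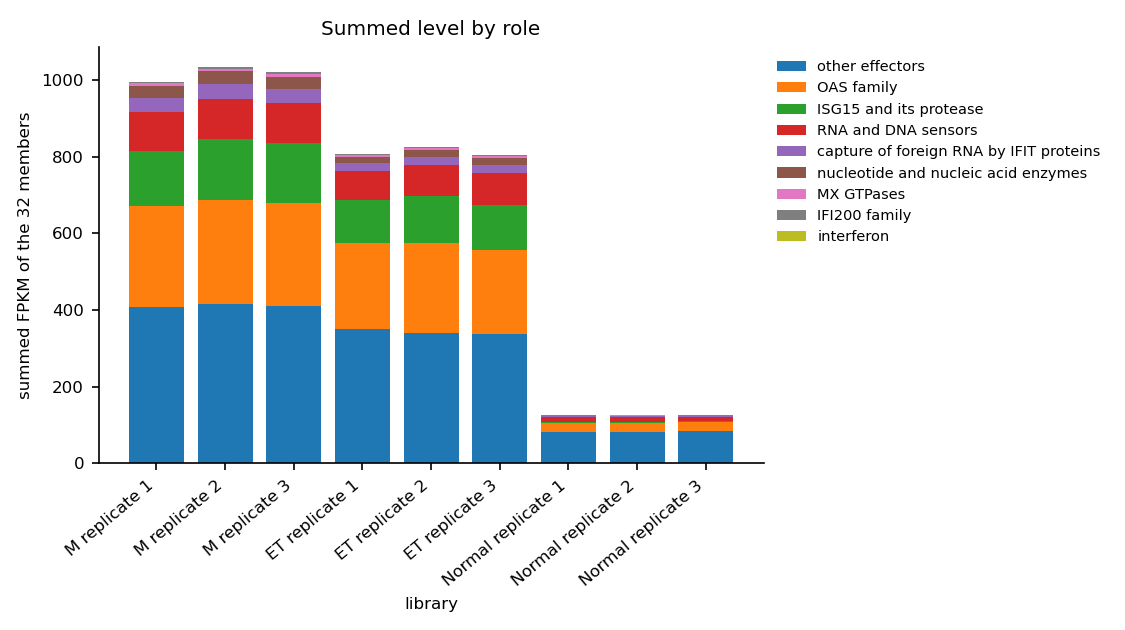
Bars show the summed FPKM of the 32 members in each of the 9 libraries, stacked by role; bars start at 0. The 3 M libraries reached 995.9 to 1034 FPKM and the groups do not overlap, with the OAS family and the effectors that include Bst2 making up most of each bar.

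Genes were tested with edgeR's quasi-likelihood test on counts, in 1 fit of the 3 groups, if 3 or more of the 9 libraries reached an FPKM of 1. Of the 32 members, 29 passed this filter and Ifnb1, Mx1 and Ifi205 did not. Of the 29, 12 had an FPKM of at least 1 in all 9 libraries, 16 in every M and ET library but not in every Normal one, and Ddx60 in M libraries only. Calls are at a Benjamini-Hochberg adjusted p of at most 0.05 over all 11536 genes tested. Folds below are on the log2 scale of TMM-scaled counts, and levels are FPKM.

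**Figure D2:**
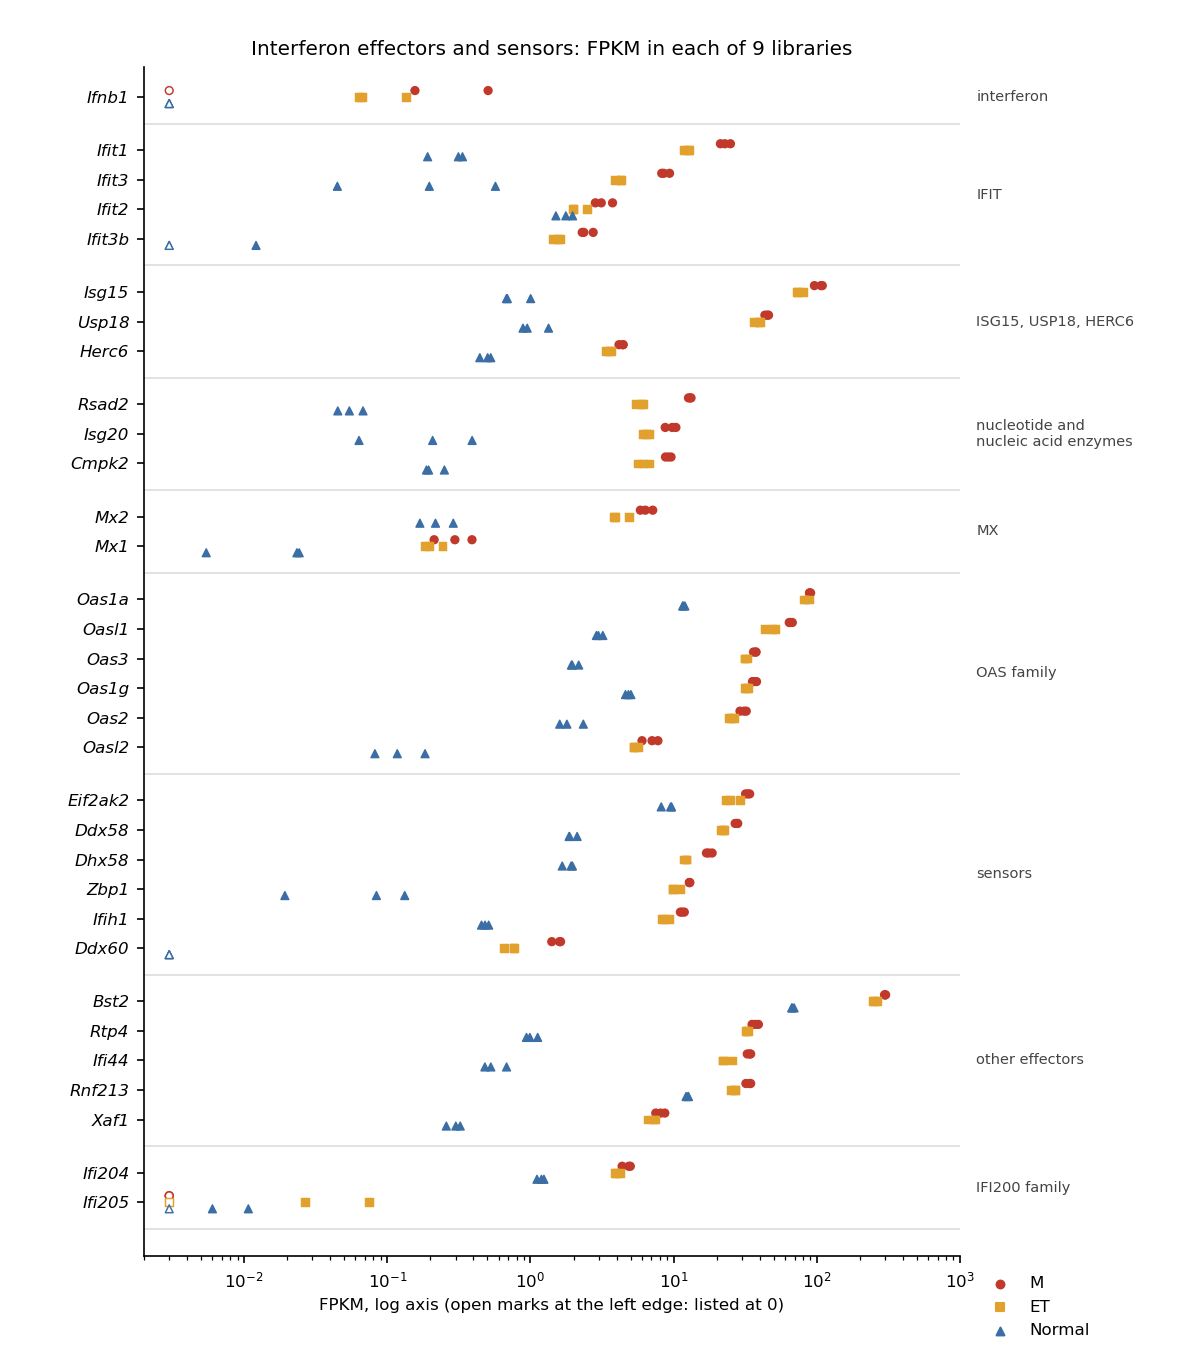
Points show the FPKM of each member in each library on a log axis, with genes grouped by role and M, ET and Normal in separate colours and rows; open marks at the left edge are listed at 0. Ifit2 lies between 1.51 and 3.74 FPKM in all libraries, and Ddx60 is at 0 in the 3 Normal libraries.

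The question set by M against ET is whether the treated groups differ from each other. Of the 29 tested members, 19 were higher in M than in ET, 0 were lower and 10 were not called, where 4.97% of all tested genes were called higher and 4.12% lower. The members' median log2 fold change was 0.38, against 0.00 over all tested genes. Without Ddx60, which passed the filter through M alone, 18 of 28 were higher and the median was 0.38. All 29 had fitted values above 0, also with DESeq2 and with limma, so that 0 were lower at any p. In all 29, every M library stood above every ET library in TMM-scaled CPM (counts scaled to library depth), as did 14.3% of all tested genes. The differences ran from 0.10 for Oas1a to 1.16 for Rsad2. By rounded folds, 9 members differed by 1.5-fold or more, with Cmpk2 at that limit only through rounding. Of these 9, Ifit3, Ifit3b and Isg20 were not called. The count of all genes called in this comparison depended on single libraries: it was 1048 with all of them, 1830 without ET replicate 3 and 530 to 665 without any 1 of the other M or ET libraries. The members called were 13 without ET replicate 1, 14 without ET replicate 2 or any 1 M replicate, 19 without ET replicate 3, and 23 without any 1 Normal replicate.

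**Figure D3:**
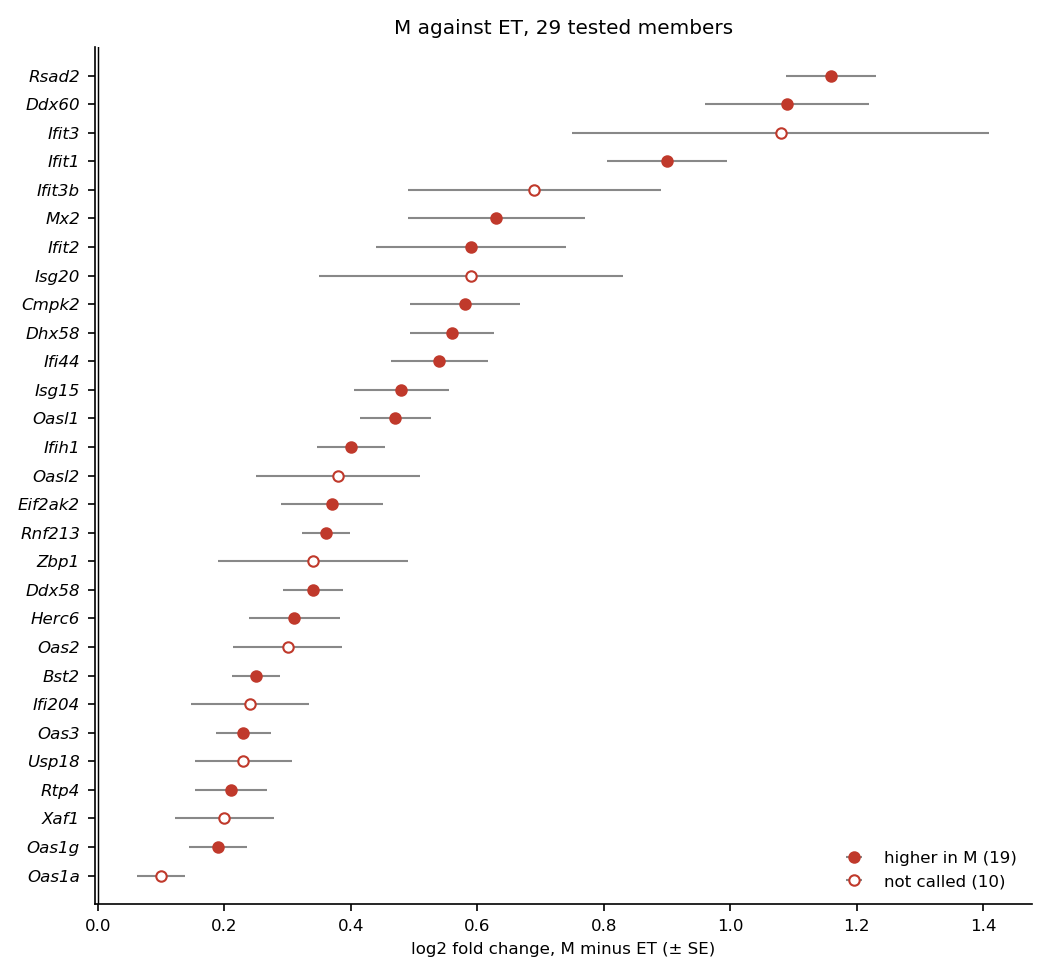
Points show the log2 fold change of M minus ET for the 29 tested members with its standard error; filled points passed the test and open points did not. All points lie to the right of 0, from Oas1a at 0.10 to Rsad2 at 1.16.

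Both treated groups differed from Normal in every tested member. In ET against Normal 29 of 29 rose, where 35% of all tested genes were called higher, with a median of 4.24 against -0.02 over all tested genes. In M against Normal 29 of 29 rose, where 35.5% of all tested genes were called higher, with a median of 4.85 against -0.01. A member that reached the filter only through the treated libraries had to be higher there, so these counts describe the members and do not weigh them against other genes. The 12 members with an FPKM of at least 1 in every library were all called, with medians of 2.79 in ET and 3.01 in M. These comparisons share the Normal libraries.

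Interferon beta itself was near the limit of detection. Ifnb1 had 0, 8 and 24 counts in M, 4, 6 and 4 counts in ET and 0, 0 and 0 counts in Normal libraries. The M libraries overlapped the ET libraries, and every ET library was above the Normal ones. Without the filter on low values, edgeR gave Ifnb1 an adjusted p of 0.75 for M against ET, 0.0558 for ET against Normal and 0.0255 for M against Normal. At this depth, 0 in a Normal library allows at most 3 counts. Of 20 other interferon genes looked for, only 3 were in the expression table, and these type I interferons were as low. Ifna13 had 4, 0 and 0 counts in M and 0 in every other library, and Ifnk had 4 counts in 1 ET library only. Ifnz had 3, 5 and 2 counts in M, 4, 1 and 0 counts in ET and 1, 1 and 0 counts in Normal.

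The IFIT proteins bind viral RNA that lacks the methyl marks of host caps or bears a 5′ triphosphate. Ifit1, Ifit2, Ifit3 and Ifit3b lie within chr19:34550694-34650009, in coordinates that equal those of GENCODE M21 on GRCm38. Of the 4, Ifit1 and Ifit2 were called higher in M than in ET, where 4.97% of all tested genes were called higher. Ifit1 stood at 21.2, 24.9 and 22.8 FPKM in M, 11.8, 12.8 and 12.6 FPKM in ET, and 0.335, 0.314 and 0.191 FPKM in Normal. It was 0.90 higher in M than in ET (SE 0.095, edgeR adjusted p = 0.000107) and 5.51 higher in ET than in Normal (SE 0.13, edgeR adjusted p = 1.66e-12). The groups did not overlap.

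Ifit2 had the smallest change against Normal of the 29 tested members. It had 3.12, 3.74 and 2.84 FPKM in M, 1.97, 2.00 and 2.498 FPKM in ET, and 1.51, 1.97 and 1.77 FPKM in Normal. The values of ET and Normal almost met, and the lowest ET library stood at the level of the highest Normal one. Its log2 fold change was 0.59 for M against ET (SE 0.15, edgeR adjusted p = 0.0251), 0.97 for M against Normal (SE 0.15, edgeR adjusted p = 6.38e-05) and 0.38 for ET against Normal (SE 0.15, edgeR adjusted p = 0.035). The call of ET against Normal was lost without ET replicate 3 (edgeR adjusted p = 0.129), Normal replicate 1 (0.141) or Normal replicate 3 (0.0635). It was also lost with no filter (0.0846), with scaling by total counts only (0.0855) and with limma at pseudocounts of 0.1 (0.0907) and 1 (0.103). The range was 0.0118 to 0.141 over 19 other processings of the same data. The call of M against ET was lost without M replicate 1 (0.0618), M replicate 2 (0.0953), ET replicate 1 (0.0914) or ET replicate 2 (0.104). With no filter it was also lost (0.0587), and the range was 0.00111 to 0.104. Of its promoter windows, the one at chr19:34550444-34550743 held a kappaB-type match at -247 and the one at chr19:34550838-34551137 held none. Neither held a match to the response element, which says only that these letters are not in these windows.

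Ifit3 and Ifit3b were not called between M and ET, although their M values did not overlap their ET values. Ifit3 had 8.26, 8.53 and 9.37 FPKM in M, 3.88, 4.28 and 4.25 FPKM in ET, and 0.0448, 0.197 and 0.57 FPKM in Normal. The Normal libraries differed among themselves by more than 10-fold, and all libraries share 1 estimate of the spread. The log2 fold change of M against ET was 1.08 (SE 0.33, edgeR adjusted p = 0.0645), and it was called in a fit of the M and ET libraries alone (adjusted p = 0.000136) and without Normal replicate 1 (0.0109) or 3 (0.0052), with a range of 0.000136 to 0.285 over the 19 processings. Ifit3b averaged 2.47 ± 0.24 FPKM in M and 1.54 ± 0.0896 FPKM in ET (SD, n = 3 each) and had 2 counts over all Normal libraries, which gives a ratio of 548 (95% counting interval 151 to 4534) for M and 339 (93.5 to 2807) for ET. The paralogues share sequence: 41.1% of the 75-base words of the Ifit3 transcript also occur in Ifit3b, so their separate levels are uncertain.

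ISG15 is a ubiquitin-like protein that is joined to other proteins; USP18 removes it and also restrains the interferon receptor, and HERC6 is the enzyme that attaches it in mouse cells. Isg15 was the second most abundant member in M. It had 96.2, 109 and 107 FPKM in M, 72.2, 79.8 and 73.8 FPKM in ET, and 1.003, 0.68 and 0.69 FPKM in Normal, and the groups did not overlap. It was 0.48 higher in M than in ET (SE 0.075, edgeR adjusted p = 0.00213) and 6.63 higher in ET than in Normal (SE 0.12, edgeR adjusted p = 7.88e-14). Herc6 averaged 4.34 ± 0.159 FPKM in M, 3.51 ± 0.167 FPKM in ET and 0.491 ± 0.0438 FPKM in Normal (SD, n = 3 each). Its M against ET log2 fold change was 0.31 (SE 0.072, edgeR adjusted p = 0.0193). The call was lost without M replicate 1 or 2 or ET replicate 1 or 2 (0.0666 to 0.0882). With limma at a pseudocount of 0.1 it was also lost (0.084), and the range was 0.00111 to 0.0882 over the 19 processings. Usp18 averaged 44.9 ± 1.33 FPKM in M, 38.7 ± 1.97 FPKM in ET and 1.06 ± 0.244 FPKM in Normal. Its M against ET value of 0.23 was not called (SE 0.077, edgeR adjusted p = 0.0871), except with DESeq2 (0.0132), in a fit of the M and ET libraries alone (0.0175) and without Normal replicate 3 (0.0134), with a range of 0.0132 to 0.294.

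Rsad2 showed the largest difference between the treated groups. It encodes viperin, which makes a chain-terminating analogue of a nucleotide, and its neighbour Cmpk2 encodes a mitochondrial nucleotide kinase. Rsad2 had 13.0, 13.2 and 12.7 FPKM in M, 5.44, 6.17 and 5.97 FPKM in ET, and 0.0677, 0.0544 and 0.0451 FPKM in Normal. The groups were far apart relative to their spread. It was 1.16 higher in M than in ET (SE 0.071, edgeR adjusted p = 1.85e-06), which is 2.23-fold, and 6.74 higher in ET than in Normal (SE 0.12, edgeR adjusted p = 7.05e-14). Cmpk2, on the same stretch of chr12:26442746-26479837, averaged 9.18 ± 0.41 FPKM in M, 6.18 ± 0.578 FPKM in ET and 0.211 ± 0.0345 FPKM in Normal (SD, n = 3 each). Its M against ET difference was 0.58 (SE 0.087, edgeR adjusted p = 0.00148). Isg20, an exonuclease that degrades single-stranded RNA, had 9.77, 10.4 and 8.73 FPKM in M and 6.06, 6.42 and 6.76 FPKM in ET. Its difference of 0.59 was not called (SE 0.24, edgeR adjusted p = 0.144); it was called without Normal replicate 2 (0.0432) or 3 (0.0233), with a range of 0.00434 to 0.43. In Normal its libraries were at 0.207, 0.392 and 0.0635 FPKM.

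MX proteins are GTPases that trap viral ribonucleoproteins. Mx2 had 5.86, 6.34 and 7.15 FPKM in M, 3.89, 4.87 and 3.81 FPKM in ET, and 0.169, 0.289 and 0.217 FPKM in Normal. It was 0.63 higher in M than in ET (SE 0.14, edgeR adjusted p = 0.0149), a call that was lost without M replicate 3 (0.0709) or ET replicate 1 (0.0608), with a range of 4.56e-05 to 0.0709. Mx1 stayed below 1 FPKM in every library and had 54, 93 and 71 counts in M, 63, 44 and 47 counts in ET and 7, 8 and 2 counts in Normal. Its M and ET libraries overlapped, and both groups lay above Normal. Without the filter, Mx1 was 3.34 higher in ET (edgeR adjusted p = 7.38e-05) and 3.88 higher in M (edgeR adjusted p = 2.2e-05) than in Normal, and M against ET was not called (0.533).

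OAS enzymes make 2′-5′ linked oligoadenylates that activate RNase L. As a family they were the most abundant members after the effectors that include Bst2. Their summed levels were 263 to 269.5 FPKM in M, 219 to 235.9 FPKM in ET and 23.2 to 24.0 FPKM in Normal. Of the 6, 3 were called higher in M than in ET, where 4.97% of all tested genes were called higher. Oas1a had 88.9, 90.5 and 89.2 FPKM in M, 83.2, 88.2 and 81.0 FPKM in ET, and 11.98, 11.6 and 11.6 FPKM in Normal. Its difference of 0.10 between M and ET was the smallest of all members and was not called (SE 0.038, edgeR adjusted p = 0.121). Oas1g, which shares 44.6% of its 75-base words with Oas1a, averaged 36.5 ± 1.246 FPKM in M, 32.2 ± 0.745 FPKM in ET and 4.82 ± 0.209 FPKM in Normal (SD, n = 3 each). Its value of 0.19 was called (SE 0.046, edgeR adjusted p = 0.0243), but not without any 1 M replicate or without ET replicate 1 or 2 (0.0547 to 0.107). With no filter it was not called either (0.0542), and the range was 0.00759 to 0.107 over the 19 processings. Since the pair share this sequence, their separate levels are uncertain.

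Oas3, the large isoform, had 36.1, 37.6 and 37.4 FPKM in M, 31.4, 32.6 and 31.2 FPKM in ET, and 2.17, 1.93 and 1.96 FPKM in Normal. Its difference of 0.23 was small and was called (SE 0.043, edgeR adjusted p = 0.00575). Oas2 averaged 30.8 ± 1.56 FPKM in M and 25.3 ± 0.983 FPKM in ET, and its value of 0.30 lay just outside the threshold (SE 0.086, edgeR adjusted p = 0.0533); it was called without Normal replicate 1 (0.0266) or 2 (0.0051), with a range of 0.00464 to 0.169. The 4 genes Oas1a, Oas1g, Oas2 and Oas3 lie on chr5:120730333-120907521, and their M over ET values ran from 0.10 to 0.30. The OAS-like genes Oasl1 and Oasl2 lie apart from them on chr5:114896936-114937915. Oasl1, which in mice represses translation of Irf7, had 67.4, 65.4 and 64.2 FPKM in M, 49.0, 51.0 and 43.4 FPKM in ET, and 3.20, 2.98 and 2.89 FPKM in Normal. It was 0.47 higher in M than in ET (SE 0.056, edgeR adjusted p = 0.000277). Oasl2 averaged 6.95 ± 0.882 FPKM in M and 5.40 ± 0.193 FPKM in ET and was not called (0.38, SE 0.13, edgeR adjusted p = 0.0871), except without Normal replicate 1 (0.0307) and in the fit of the M and ET libraries alone (0.0248), with a range of 0.0248 to 0.291.

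Of the 6 genes grouped here as sensors, 5 were higher in M than in ET, where 4.97% of all tested genes were called higher. Ifi204, also a DNA sensor, is counted with the IFI200 family below and was not called. Ddx58 encodes RIG-I and Ifih1 encodes MDA5, the cytoplasmic helicases that recognise foreign RNA, and Dhx58 encodes LGP2, which modulates them. Ddx58 averaged 27.6 ± 0.582 FPKM in M, 22.0 ± 0.605 FPKM in ET and 1.95 ± 0.144 FPKM in Normal (SD, n = 3 each), with an M against ET difference of 0.34 (SE 0.047, edgeR adjusted p = 0.000895). Ifih1 had 11.2, 11.5 and 11.9 FPKM in M, 8.34, 8.63 and 9.36 FPKM in ET, and 0.511, 0.482 and 0.455 FPKM in Normal. The groups did not overlap, and M was 0.40 above ET (SE 0.054, edgeR adjusted p = 0.00074). Dhx58 had 17.6, 18.6 and 17.0 FPKM in M, 12.1, 12.3 and 11.8 FPKM in ET, and 1.96, 1.92 and 1.67 FPKM in Normal, and M was 0.56 above ET (SE 0.066, edgeR adjusted p = 0.00025). Dhx58 had the largest M over ET difference of these 3 helicases and the smallest ET over Normal one (2.77, against 3.56 for Ddx58 and 4.25 for Ifih1); differences between genes were not tested.

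Ddx60, a helicase linked to RIG-I signalling, had no counts in Normal libraries. It stood at 1.60, 1.41 and 1.62 FPKM in M and 0.767, 0.762 and 0.655 FPKM in ET, and these did not overlap. It was 1.09 higher in M than in ET (SE 0.13, edgeR adjusted p = 0.000651), and it was at least 325-fold higher in M and at least 153-fold higher in ET than the floor of 3 counts in each Normal library. Zbp1, a sensor of nucleic acid in the Z form, averaged 12.9 ± 0.0471 FPKM in M, 10.3 ± 0.691 FPKM in ET and 0.0786 ± 0.0568 FPKM in Normal (SD, n = 3 each). It was 7.16 higher in ET than in Normal (SE 0.24, edgeR adjusted p = 3.44e-11), and its M against ET value of 0.34 was not called (SE 0.15, edgeR adjusted p = 0.169), except without Normal replicate 2 (0.0198), in the fit of the M and ET libraries alone (0.00728) and with limma at a pseudocount of 1 (0.0148), with a range of 0.00728 to 0.698. Eif2ak2 encodes PKR, the kinase that halts translation on double-stranded RNA. It had 31.8, 33.1 and 34.0 FPKM in M, 23.0, 24.7 and 29.2 FPKM in ET, and 9.53, 9.67 and 8.19 FPKM in Normal. ET replicate 3 lay nearest to M, and the difference of 0.37 (SE 0.081, edgeR adjusted p = 0.0149) was not called without M replicate 3 (0.0573), ET replicate 1 (0.0565) or ET replicate 2 (0.0673), with a range of 4.91e-05 to 0.0673.

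Among the other effectors, 4 of 5 were higher in M than in ET, where 4.97% of all tested genes were called higher. Bst2 had 299.8, 302 and 297 FPKM in M, 265.1, 251 and 244.5 FPKM in ET, and 67.0, 67.0 and 69.4 FPKM in Normal. It was already the most abundant member in Normal, and M stood 0.25 above ET (SE 0.038, edgeR adjusted p = 0.0015). Rnf213, a very large ubiquitin ligase, had 31.96, 34.5 and 33.9 FPKM in M, 25.01, 26.8 and 26.7 FPKM in ET, and 12.2, 12.7 and 12.6 FPKM in Normal. It was 0.36 higher in M than in ET (SE 0.038, edgeR adjusted p = 0.000101), while its ET over Normal change of 1.14 was the second smallest of the members (SE 0.039, edgeR adjusted p = 3.68e-11). Ifi44 averaged 33.7 ± 0.934 FPKM in M, 23.4 ± 2.02 FPKM in ET and 0.564 ± 0.105 FPKM in Normal (SD, n = 3 each), with M 0.54 above ET (SE 0.077, edgeR adjusted p = 0.00107).

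Rtp4, which in mammals binds viral RNA, averaged 37.2 ± 1.88 FPKM in M, 32.4 ± 0.658 FPKM in ET and 1.02 ± 0.0953 FPKM in Normal (SD, n = 3 each). Its M against ET call, at 0.21, was the least stable (SE 0.057, edgeR adjusted p = 0.0384) and was lost in 11 of the 19 processings. It was lost without any 1 M replicate and without ET replicate 1 or 2 (0.0524 to 0.142). Among the other losses were those with no filter (0.0768), with scaling by total counts only (0.0537) and with limma at a pseudocount of 0.1 (0.0945). The range was 0.00805 to 0.142 over the 19 processings. Xaf1, a cell death factor, averaged 8.10 ± 0.588 FPKM in M, 7.11 ± 0.438 FPKM in ET and 0.294 ± 0.033 FPKM in Normal, and its 0.20 was not called (SE 0.078, edgeR adjusted p = 0.135). Of the IFI200 family, Ifi204, a DNA sensor related to human IFI16, averaged 4.74 ± 0.325 FPKM in M, 4.04 ± 0.181 FPKM in ET and 1.18 ± 0.0662 FPKM in Normal. It was not called between M and ET (0.24, SE 0.093, edgeR adjusted p = 0.131) and was 1.85 higher in ET than in Normal (SE 0.098, edgeR adjusted p = 3.24e-09). Ifi205 had 0, 0 and 0 counts in M, 0, 7 and 21 counts in ET and 2, 4 and 0 counts in Normal, and the groups overlapped. Ifi205 shares 45.2% of its 75-base words with other IFI200 genes, and Ifi204 shares 20.7%.

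**Figure D4:**
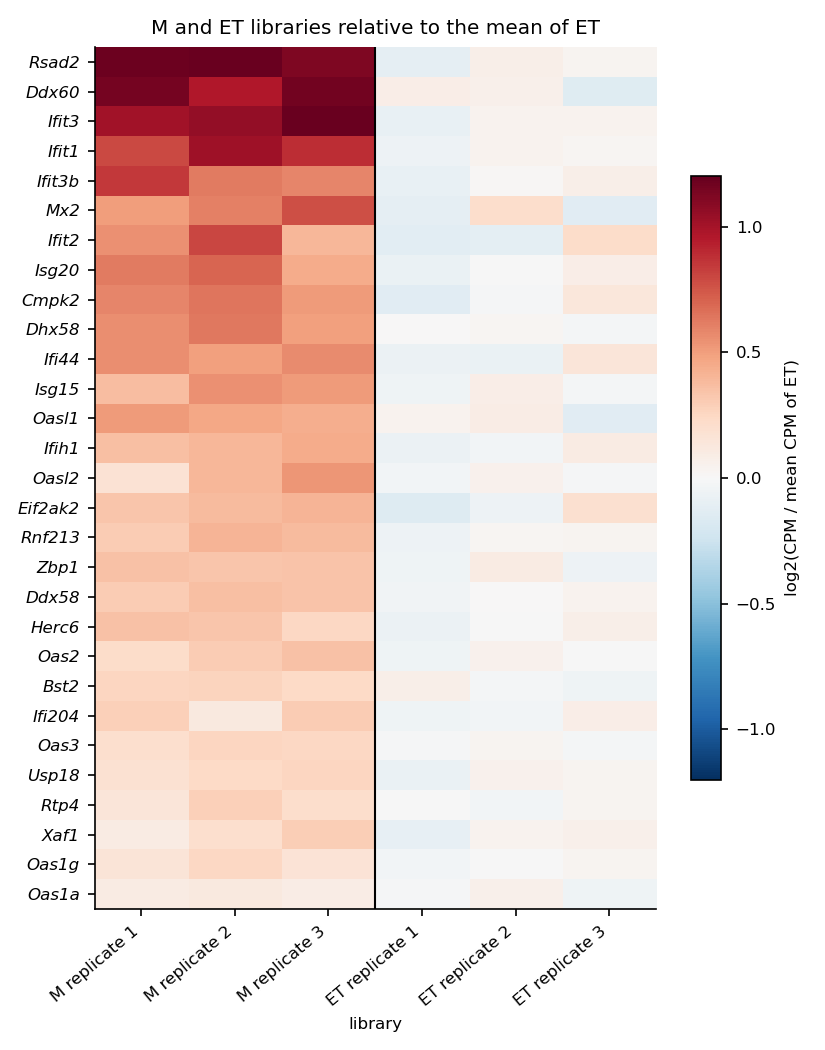
Colours show, for each tested member, the log2 ratio of CPM in each M and ET library to the mean of the ET libraries; genes run from the largest to the smallest M over ET difference. Every M cell is above 0, with library medians of 0.36, 0.40 and 0.41 in M, and ET libraries lie between -0.15 and 0.22.

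The M libraries resembled one another in these genes. The median log2 ratio to the mean of ET was 0.36, 0.40 and 0.41 in M replicates 1, 2 and 3, and -0.06, 0.03 and 0.03 in ET replicates 1, 2 and 3. ET replicate 3 had the highest of the ET values in 14 of the 29 tested members, ET replicate 2 in 13 and ET replicate 1 in 2. Members with a match to the response element ran from 0.10 to 1.16 in M over ET (13 tested, 10 called, median 0.40). Members with a window and no match ran from 0.20 to 0.59 (9 tested, 6 called, median 0.47). Over all tested genes, 4.97% were called higher in M than in ET and the median was 0.0. Whether members with and without a match differ was not tested.

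Of 15 tested receptor and signalling genes, 4 were higher in M than in ET, 0 were lower and 11 were not called (median 0.05). Over all tested genes, 4.97% were called higher in M than in ET and 4.12% lower. In ET against Normal 10 rose and 5 fell, where 35% of all tested genes were called higher and 35.2% lower. The receptor chains were not called between M and ET: Ifnar1 averaged 10.7 FPKM in M, 10.5 FPKM in ET and 9.81 FPKM in Normal, and Ifnar2 averaged 16.3 FPKM in M, 15.8 FPKM in ET and 26.8 FPKM in Normal. Ifnar2 fell by 0.69 in ET relative to Normal (SE 0.055, edgeR adjusted p = 1.68e-07). Stat2 had 9.26, 10.1 and 9.60 FPKM in M, 6.55, 7.91 and 7.83 FPKM in ET, and 4.12, 4.57 and 4.92 FPKM in Normal. The groups did not overlap, and M was 0.39 above ET (SE 0.081, edgeR adjusted p = 0.0118). Stat3 was also higher in M than in ET, by 0.23 (SE 0.042, edgeR adjusted p = 0.00565). Irf9, the DNA-binding partner of STAT2, averaged 12.6 FPKM in M and 12.2 FPKM in ET and was not called (0.05, SE 0.069, edgeR adjusted p = 0.689), while it was 1.76 higher in ET than in Normal (SE 0.073, edgeR adjusted p = 2.67e-10).

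Of 31 tested genes of interferon induction, 5 were higher in M than in ET, 1 was lower and 25 were not called (median 0.09). Over all tested genes, 4.97% were called higher and 4.12% lower in this comparison. Irf3 and Irf1 were lower in both treated groups than in Normal and were not called between M and ET: Irf3 averaged 7.97 FPKM in M, 7.19 FPKM in ET and 11.2 FPKM in Normal, and Irf1 averaged 3.73 FPKM in M, 3.45 FPKM in ET and 7.32 FPKM in Normal. Irf7, the regulator that amplifies interferon production, had 119.6, 118 and 115 FPKM in M, 94.2, 98.7 and 92.4 FPKM in ET, and 1.21, 1.05 and 1.30 FPKM in Normal, and M was 0.32 above ET (SE 0.048, edgeR adjusted p = 0.00172). Ikbke, a kinase of IRF3 and IRF7, averaged 8.61 FPKM in M, 6.12 FPKM in ET and 2.51 FPKM in Normal, with M 0.50 above ET (SE 0.048, edgeR adjusted p = 5.29e-05). Nfkb1, a subunit of NF-kappaB, was 0.30 higher in M than in ET (SE 0.034, edgeR adjusted p = 0.000226). The gene that was lower, named after its values were seen, was Tbkbp1, which encodes a partner of TBK1 (-0.29, SE 0.06, edgeR adjusted p = 0.0111).

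**Figure D5:**
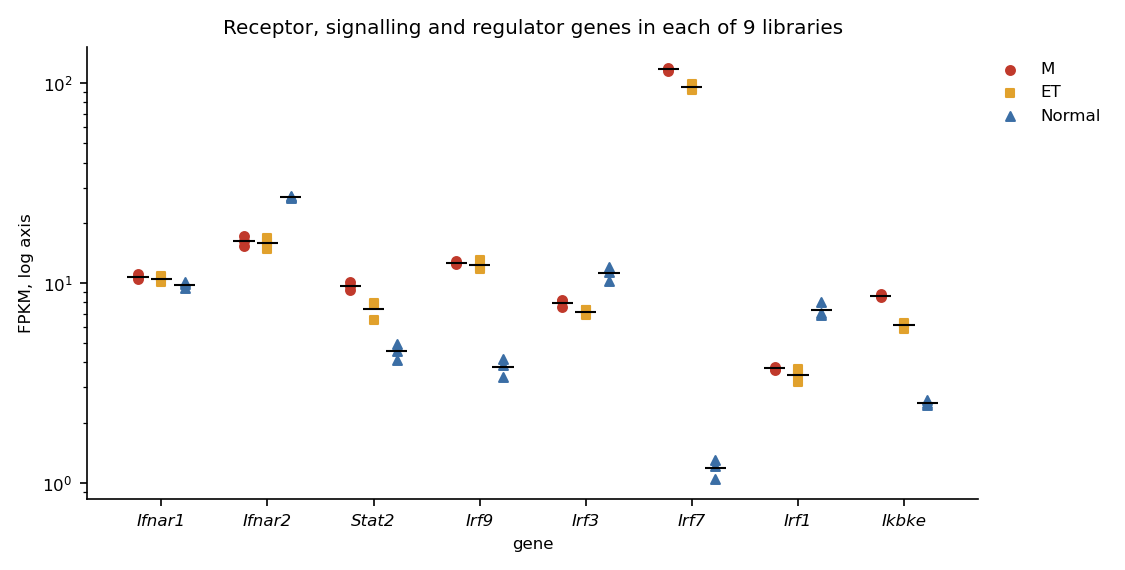
Points show the FPKM of receptor, signalling and regulator genes in each library on a log axis, with M, ET and Normal from left to right and a line at each mean. Irf7 averages 117 FPKM in M, 95.1 FPKM in ET and 1.19 FPKM in Normal, and the 3 groups of Ifnar1 lie close together.

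For paralogues and other interferon-stimulated genes, the shares over all tested genes were 4.97% called higher in M than in ET and 4.12% lower. Of 18 tested paralogues, 2 were higher in M than in ET, 0 were lower and 16 were not called (median 0.07). These 2 were Ifi44l, with 22.2 FPKM in M, 14.9 FPKM in ET and 0.133 FPKM in Normal (0.58, SE 0.094, edgeR adjusted p = 0.00251), and Herc4 (0.23, SE 0.057, edgeR adjusted p = 0.0287). In ET against Normal 10 of the 18 rose and 5 fell, where 35% of all tested genes were called higher and 35.2% lower. Of the IFI200 genes in this list, Ifi203, Ifi207, Ifi209, Ifi211 and Mndal rose, and Aim2 was not called. Ifi213, another IFI200 gene, fell by 1.06 in ET relative to Normal (SE 0.12, edgeR adjusted p = 6.74e-06), and it was not called between M and ET (0.39, SE 0.12, edgeR adjusted p = 0.0746). Of 50 other interferon-stimulated genes tested, 14 were higher in M than in ET, 1 was lower and 35 were not called (median 0.18), and 44 rose and 2 fell in ET against Normal (median 1.40). Slfn5 averaged 11.1 FPKM in M, 8.05 FPKM in ET and 0.538 FPKM in Normal, with M 0.47 above ET (SE 0.076, edgeR adjusted p = 0.00248). The chemokine gene Ccl5 averaged 192.5 FPKM in M, 130.8 FPKM in ET and 0.38 FPKM in Normal, with M 0.57 above ET (SE 0.094, edgeR adjusted p = 0.00287). Helz2 was 0.29 higher in M (SE 0.049, edgeR adjusted p = 0.00334), and Ifi30, the gene that was lower and named after its values were seen, fell by 0.18 in M relative to ET (SE 0.034, edgeR adjusted p = 0.00726). Whether the lists differ from one another was not tested.

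Markers of other cell types moved with the groups in part. Summed over its list, the level of 7 plasmacytoid dendritic markers found in the table was 5.99 to 6.38 FPKM in M, 5.43 to 5.73 FPKM in ET and 9.12 to 10.3 FPKM in Normal, while Ccr9 did not exceed 0.0448 FPKM. Genes of this list moved in opposite directions against Normal: Siglech averaged 0.0062 FPKM in M and 3.18 FPKM in Normal and was listed at 0 in ET, and Spib averaged 1.60 FPKM in M, 1.19 FPKM in ET and 0.0508 FPKM in Normal. The sum of 7 fibroblast markers was 4.16 to 6.16 FPKM in M, 3.13 to 3.60 FPKM in ET and 0.0941 to 0.243 FPKM in Normal, of which Lum alone exceeded 1 FPKM; Col1a1 did not exceed 0.034 FPKM. The sum of 4 lymphocyte markers, nearly all Ighm, was 29.5 to 30.8 FPKM in M, 25.5 to 26.6 FPKM in ET and 229 to 246 FPKM in Normal, while Cd4 did not exceed 0.0209 FPKM. The sum of 6 neutrophil markers, nearly all S100a8, was 41.9 to 47.7 FPKM in M, 37.9 to 46.9 FPKM in ET and 0.0578 to 0.129 FPKM in Normal, while Mpo did not exceed 0.0198 FPKM. Of the macrophage markers, the sum was 2390 to 2440 FPKM in M, 2460 to 2640 FPKM in ET and 1990 to 2110 FPKM in Normal. Of the 9 tested, 5 were higher and 3 lower in ET than in Normal, where 35% of all tested genes were called higher and 35.2% lower. Cd14 was higher by 2.33 (SE 0.038, edgeR adjusted p = 5.44e-14) and Csf1r was at -0.66 (SE 0.028, edgeR adjusted p = 3.54e-10). Between M and ET, Ptprc was higher in M, Cd68, Csf1r and Lyz2 were lower in M, and 5 were not called. Of all tested genes, 4.97% were called higher in M than in ET and 4.12% lower. The part of these markers in the members' differences was not tested.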

How the data were processed

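The 9 libraries were made from poly(A)-selected RNA and sequenced with paired reads. Per the submitters' processing notes, cutadapt 1.9, HISAT2 2.2.1, StringTie 2.1.6, DESeq2 and edgeR were used. The authors deposited raw counts for each gene, all whole numbers, in 1 table of all libraries. The FPKM values in the deposited table were made by the authors, per the file headers. The counting tool, its strand setting and the genome build are not given in the sources used here; the library kit marks strand, per the labels' protocols. Coordinates equalled those of GENCODE M21 (GRCm38) for 27 of 32 members and 86.8% of all genes. Overlapping antisense genes, such as Dhx58os (0 to 40 counts), may therefore share counts with members. On the same strand, Gm45193 (0 to 16 counts) overlaps Herc6, and 22.4% of the 75-base words of Herc6 also occur in it. Rtp4 shares 12.4% of its words with Gm45338. The levels of Herc6 and Rtp4 are uncertain to that extent.

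Computed here from the counts: TMM factors, edgeR 4.0.16 quasi-likelihood tests in R 4.3.3, Benjamini-Hochberg adjustment at 0.05, and SE as the log2 fold change over the root of F. A gene was tested if 3 or more libraries reached an FPKM of 1 (11536 genes). limma 3.58.1 and DESeq2 1.42.0 were alternatives. The test was checked on simulated counts. Total counts were 55039858 to 76242718 per library. Intervals for a ratio of counts are exact at 95%. Shared sequence was counted as 75-base words of GENCODE M21 transcripts.

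Members and gene lists were chosen with earlier results of these data known. All 32 members were named, as were Ifnar1, Ifnar2, Stat2, Irf9, Irf3, Irf7, Irf1 and the 3 genes with the smallest p in M against ET of each other gene list; for the marker lists the sums are given in their place, and 1 gene under this rule is not reported here.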

Additional observations from a re-analysis of the deposited data

How the results depend on the processing

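Processing choices changed single calls between M and ET and no direction of a tested member. Over 19 alternatives, 13 to 26 members were called higher in M than in ET, against 19, and 0 were called lower. Of the 19, 13 kept the call in every alternative that tested them: Bst2, Cmpk2, Ddx58, Ddx60 (tested in 16), Dhx58, Ifi44, Ifih1, Ifit1, Isg15, Oas3, Oasl1, Rnf213 and Rsad2. Ddx60 passed the filter through M alone, so the alternatives without an M replicate did not test it. The calls of Eif2ak2, Herc6, Ifit2, Mx2, Oas1g and Rtp4 were lost in some, and 7 others (Ifit3, Ifit3b, Isg20, Oas2, Oasl2, Usp18 and Zbp1) were gained in some, all 7 in a fit of the M and ET libraries alone, where 26 were called. The number of all genes called between M and ET was 1048; it was 615 with no filter on low values, 1682 with DESeq2, 386 at a threshold of 0.01 and 530 to 1830 when each library was left out in turn. With limma on FPKM and a pseudocount of 0.1, 339 genes were higher and 421 lower, against 573 and 475. Deviations from the group means correlated at 0.0756, 0.0373 and 0.0309 in same-numbered M and ET libraries. In M and ET libraries with different numbers they correlated at -0.0571 to 0.0233. Correlations this small, from so few libraries, cannot decide whether the numbers pair the libraries. With the replicate block, 922 genes and 19 members were called between M and ET, with Oas2 gained and Rtp4 lost. Against Normal, 28 to 30 members were higher in ET and 28 to 31 in M, and Ifit2 in ET was the member whose call was lost. Ifnb1, Ifi205 and Mx1 did not reach the filter; without it Mx1 was called against Normal in both treated groups.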
